A study of Mus musculus with 13 samples.

Results

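The genes of the cytosolic ribosomal proteins were followed in Neuro2a, a cell line from a mouse neuroblastoma that can take on features of neurons, after a simulated failure of cryostorage. Members were the protein-coding genes whose GRCm38 symbol was Rpl or Rps followed by a digit, Rplp0 to Rplp2 or Rpsa, leaving out the Rps6k kinases and names with -ps. This rule took in 86 of the 34857 genes in the deposited tables, 52 named for the large and 34 for the small ribosomal subunit. It also took in Rps19bp1, a binding partner of a ribosomal protein that is not itself part of the ribosome, and it missed genes such as Fau and Rack1, which encode ribosomal proteins under other names.

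The deposited values are FPKM (fragments mapped to a gene, scaled by transcript length and by library size) from poly(A) RNA of 13 libraries. Vials of experimental cells, with DMSO at 10% as cryoprotectant, sat in a flask whose liquid nitrogen boiled off within 10 h. They warmed to 4 °C over a further 24 h, spent 72 h at -80 °C and were then thawed at 37 °C and plated. Control cells of the same line, frozen in the same medium with DMSO, stayed in regular cryostorage until they were plated. At passage 6 there were 3 experimental and 3 control libraries, and at passage 1 there were 4 experimental and 3 control libraries. The labels do not say whether the libraries of a group came from separate vials or flasks, so p-values measure only the spread between these libraries, which may be technical. FPKM values hide the number of reads behind them, so precision was judged from that spread alone.

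Ribosomal proteins coat and shape the ribosomal RNA of the subunits, and cells need them in near equal numbers. Their mRNAs are among the most abundant of a growing cell, and in mammals most begin with a C followed by a run of pyrimidines, the TOP element, through which mTOR signalling and the protein LARP1 tune their translation and stability. Many of these genes also carry small nucleolar RNAs in their introns and have left processed pseudogenes across the mouse genome, so reads of a parent gene and of its copies are hard to separate.

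Start-site windows with a pyrimidine stretch are shown for 6 members on which the results below turn. Rpl39l, Rpl36al and Rpl6 were among the members that fell most at passage 1. Rpl5 and Rpl4 fell at both passages, and Rpsa fell at passage 1 and rose at passage 6. Leaving out any 1 control of a passage ended the calls of Rpl5, Rpl4 and Rpsa at that passage. Sequences are RefSeq reference sequence (GRCm38.p6), printed 5′ to 3′ on the strand of the gene, with the letters CTTTC in capitals. Counted from the annotated start, the capitals begin at -18 (Rpl5), -17 (Rpl4) and -6 (Rpl39l), before the start. They begin at 23 (Rpsa), 32 (Rpl36al) and 36 (Rpl6), after it. None begins at the annotated start itself. On the plus strand they lie at chr16:10170210-10170239 (Rpl39l), chr5:121204521-121204550 (Rpl6), chr5:107900498-107900527 (Rpl5), chr9:64173358-64173387 (Rpl4) and chr9:120127776-120127805 (Rpsa), and on the minus strand at chr12:69184019-69184048 (Rpl36al).
Rpl39l: tagctcccaggcCTTTCcggatttccggtg
Rpl36al: ctctgttcgtccCTTTCctgttcggcgcgt
Rpl6: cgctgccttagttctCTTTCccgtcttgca
Rpl5: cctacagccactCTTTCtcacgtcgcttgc
Rpl4: caagtgacaagtCTTTCcttttcctgtggg
Rpsa: cggccgcccgtcCTTTCgcgctacccgggg
A RefSeq promoter window was matched by symbol for 66 of the 86 members. Within the 100 bases centred on the start site, CTTTC on the gene's own strand was found in 32 of the 66 members (48.5%). The share was 9.7% of 8759 windows of genes tested at passage 1. It was 12.6% of all 27025 RefSeq promoter windows, which were not matched to the genes of the deposited tables. On either strand the shares were 59.1% of members, against 17.9% and 23.1%. CCGGAAG, a core bound by ETS factors, was found on either strand in 19.7% of members, against 12.8% and 5.5%. These letters are a description of the windows and not a mapped start or binding site. The 32 members with CTTTC had a median log2 change of -0.28 at passage 6 and of -0.063 at passage 1, and the 32 tested members with a window but without it had medians of -0.19 and -0.10.

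Ribosomal protein mRNAs made up a few percent of the summed FPKM. At passage 6 the 86 members held 4.33, 3.74 and 3.64% of the FPKM in experimental libraries 1 to 3, against 4.27, 4.43 and 4.27% in control libraries 1 to 3. At passage 1 they held 7.01, 6.93, 7.35 and 7.17% in experimental libraries 1 to 4, against 7.32, 7.28 and 7.42% in controls. Experimental libraries 2 and 3 of passage 6 lay below every control of their passage, and the passage 1 ranges overlapped. Without mitochondrial genes in the total the passage 1 ranges did not overlap, at 8.06 to 8.37% in experimental libraries and 8.54 to 8.68% in controls. The tables of the passages were deposited separately, so levels were not compared between them. Within each passage Rplp0, the base of the ribosomal P stalk, had the highest mean FPKM, and Rpl8, Rps15 and Rpl19 were the next 3, though Rps15 stood above Rplp0 in passage 6 controls 1 and 2. Rpl21, Rpl29, Rpl22l1 and Rpl35a were the 4 lowest tested members per length within each passage. By the mean over all 13 libraries Rpl4 and Rpl30 completed the 5 highest and the 5 lowest, but not at passage 6 alone. Named pseudogene copies held 97.2, 94.8 and 78.7% of the FPKM summed with Rpl21, Rpl35a and Rpl30. For these 3 genes the low value is thus that of the gene without its copies. The copies of Rpl29 held 7.78%, and Rpl22l1 had none. Of the 86 members, 84 reached 1 FPKM in at least 3 libraries of each passage and entered the tests. Rpl3l, a striated muscle form of Rpl3, and Rpl10l, a testis form of Rpl10, did not, with at most 0.414 and 0.221 FPKM in any library.

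**Figure D1:**
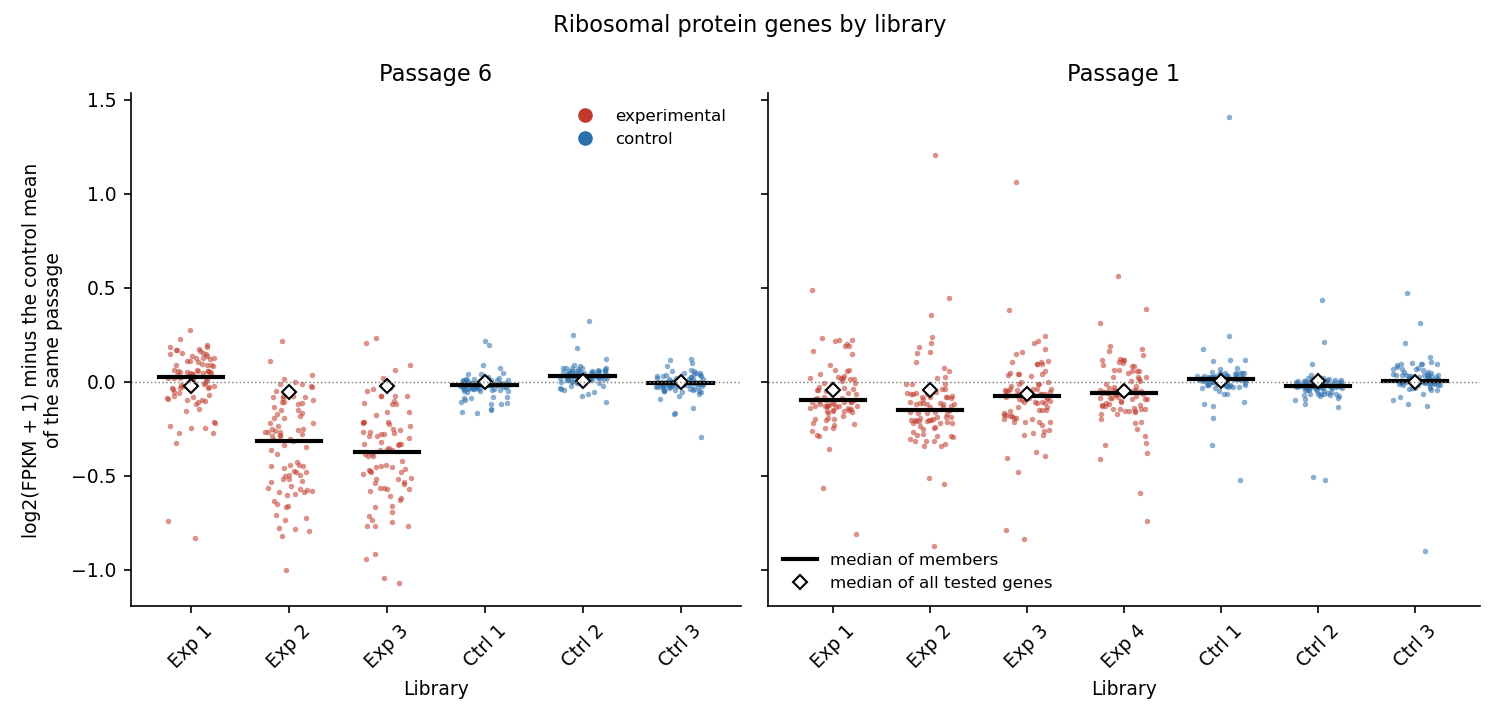
Log2(FPKM + 1) of each of the 86 members (points) minus the control mean of the same passage, by library, with passage 6 left and passage 1 right. The points include Rpl3l and Rpl10l, which were not tested. Bars are the medians of the 84 tested members and diamonds the medians of all tested genes. The bars of passage 6 experimental libraries 2 and 3 lie at -0.31 and -0.37, and that of experimental library 1 lies at 0.03.

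All 20 neuroblastoma markers were in the tables, and their sums ran from 1410 to 1520 FPKM in passage 6 experimental libraries and 1280 to 1330 FPKM in their controls, and from 1110 to 1170 FPKM in passage 1 experimental libraries and 1250 to 1290 FPKM in their controls. Passage 6 experimental libraries 2 and 3 also held 216 and 175 FPKM of 14 liver markers and 44.2 and 33.4 FPKM of 10 myelin and brain markers, of which experimental library 1 held 2.15 and 4.71 FPKM and the controls 2.54 to 3.10 and 4.88 to 6.30 FPKM. No liver or brain marker was at 0 in all libraries, and 12 of the 14 liver markers averaged at least 1 FPKM in passage 6 experimental libraries and 1 in their controls. The 20 markers of colon epithelium summed to 113, 7.30 and 7.62 FPKM in passage 6 experimental libraries 1 to 3 and to 121 to 254 FPKM in their controls, and to 7.5 to 198 FPKM in passage 1 experimental libraries and 225 to 483 FPKM in their controls. Summed FPKM per library ran from 315034 to 354288. The 9 blood markers held 3.75, 28.3 and 23.5 FPKM in passage 6 experimental libraries, against 5.27 to 16.8 FPKM in their controls, and 0.558 to 39.3 FPKM at passage 1, against 7.86 to 38.6 FPKM. The 12 cartilage markers summed to 18.5 to 20.8 FPKM in passage 6 experimental libraries and 35.8 to 60.7 FPKM in their controls, and to 8.69 to 36.2 FPKM at passage 1, against 7.21 to 50.9 FPKM. The 7 muscle and testis genes measured summed to 1.48 to 2.1 FPKM at passage 6, against 1.08 to 1.53 FPKM, and to 5.02 to 6.38 FPKM at passage 1, against 1.13 to 1.45 FPKM. The part of these transcripts in the results below was not tested, and in bulk RNA fewer cells of a kind and less RNA per cell cannot be told apart.

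At passage 6, with all libraries, 9 of the 84 tested members fell (10.7%) and 1 rose (1.19%), tested with limma on log2(FPKM + 1) with Benjamini-Hochberg adjustment over all genes at 0.05. Over all 12458 genes tested, 10.8% were lower and 8.98% higher, so the counts of members lay at or under the background. With median-of-ratios scaling 7 fell (background 8.82%), centred on the members 2 fell and none rose (background 1.29 and 5.36%), and with array weights, which give each library its own variance, 51 fell (background 15.7%). The members' median log2 change was -0.24, against -0.035 for all genes. The 9 were Rpl17, Rps13, Rpl23a, Rps12, Rpl10a, Rpl21, Rpl3, Rpl5 and Rpl4, lowered by 1.14-fold to 1.79-fold, and the 1 that rose was Rpsa. The count of lower members was 3, 2 and 2 without control 1, 2 or 3 (background 2.97, 2.37 and 2.85%), 5 and 4 without experimental library 2 or 3 (background 6.93 and 7.15%), and 66 without experimental library 1 (background 19.6%). Rpl17 and Rpl10a passed in each of these fits that left out a library. Groups did not overlap for 19 lower members (22.6%, background 24.3%) and 1 higher member (background 17.4%).

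Rpl10a, a protein of the large subunit's L1 stalk (ENSMUSG00000037805, chr17:28328471-28331033, plus strand, mm10), fell in all 3 experimental libraries. It overlaps CT025652.2 on the other strand. It stood at 224, 221 and 217 FPKM in experimental libraries, against 272, 273 and 266 FPKM in controls. The groups were far apart, with all 3 experimental libraries close together. The log2 change was -0.29 ± 0.043 (SE), a 1.23-fold decrease (adjusted p = 0.00602, limma). Scaling by quantiles and centring on the members ended this call (adjusted p = 0.092 and 0.564).

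Rpl3, which lies near the peptidyl transferase centre, had 117, 121 and 112 FPKM in experimental libraries, against 134, 140 and 134 FPKM in controls. Rpl4, a large-subunit protein that reaches into the exit tunnel, had 442.5, 411 and 408.5 FPKM, against 474, 485 and 475 FPKM. Rpl21 had 5.39, 5.69 and 5.21 FPKM, against 6.39, 6.63 and 6.73 FPKM. In each of the 3 genes every experimental library, library 1 included, lay below every control. The changes were small, 1.17-fold (adjusted p = 0.0203), 1.14-fold (adjusted p = 0.0446) and 1.18-fold (adjusted p = 0.0266, limma) in that order. Rpl3 had most of its summed FPKM in 2 pseudogene copies (75.1%) and overlaps Syngr1 on the other strand, and the 14 copies of Rpl21 held 97.2% of the FPKM summed with it. With the copies added neither Rpl3 nor Rpl21 passed (adjusted p = 0.0845 and 0.108). Leaving out any 1 control, or experimental library 3, ended the calls of all 3 genes, and leaving out experimental library 2 that of Rpl4.

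Rpl5 and Rpl11 carry the 5S rRNA into the large subunit and, when ribosome assembly is disturbed, bind the p53 ligase Mdm2. Rpl5 fell, with 152, 140 and 142 FPKM in experimental libraries, against 164, 167 and 163 FPKM in controls (log2 change -0.19 ± 0.048 SE, adjusted p = 0.0343, limma). It overlaps Fam69a on the other strand. Leaving out any 1 control, or experimental library 2 or 3, ended the Rpl5 call (adjusted p = 0.0713 to 0.141, limma). Rpl11 did not pass, with 218, 168 and 160 FPKM, against 202, 209 and 206 FPKM (adjusted p = 0.259). Experimental library 1 was the highest of the 6 for Rpl11, and libraries 2 and 3 were the lowest.

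Rps13, a small-subunit protein needed to join the subunits, had 46.1, 34.0 and 32.7 FPKM in experimental libraries, against 52.9, 54.3 and 55.9 FPKM in controls (1.45-fold lower, adjusted p = 0.0239). Rpl23a, which sits at the mouth of the exit tunnel, had 294, 217 and 207 FPKM, against 323, 328 and 335 FPKM (1.39-fold lower, adjusted p = 0.0392). Rps12 had 94.6, 79.8 and 82.6 FPKM, against 109, 119 and 129 FPKM (1.39-fold lower, adjusted p = 0.0117, limma). The groups did not overlap in any of the 3 genes, and experimental library 1 lay between the other 2 experimental libraries and the controls. Rpl23a overlaps Tlcd1 on the other strand. Leaving out any 1 control, or experimental library 2 or 3, ended the calls of Rpl23a and Rps13. Adjusted p was then 0.102 to 0.1175 for Rpl23a and 0.0681 to 0.0842 for Rps13 (limma). Leaving out control 2 or 3 ended that of Rps12 (adjusted p = 0.0527 and 0.0511, limma). With the named pseudogene copies added, Rps13 and Rps12 no longer passed (adjusted p = 0.637 and 0.131).

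Rpsa, the small-subunit protein also known as the laminin receptor, was the member that rose. It had 348, 356 and 352 FPKM in experimental libraries, against 299, 311 and 308 FPKM in controls. All 3 experimental libraries lay above all 3 controls, and library 1 did not stand apart. The log2 change was 0.20 ± 0.044 (SE), or 1.15-fold higher (adjusted p = 0.0210, limma). Leaving out control 1, 2 or 3 ended the call (adjusted p = 0.110, 0.0862 and 0.0948), and leaving out experimental library 1, 2 or 3 did not.

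In each of experimental libraries 2 and 3, 80 of the 84 tested members lay below the control mean. In experimental library 1, 50 members lay above the control mean and 34 below, 37 of them above all controls (44.0%, background 33.9%) and 21 below all controls (25.0%, background 41.8%). The median deviation of the members from the control mean was 0.03, -0.31 and -0.37 in experimental libraries 1 to 3, against -0.02, -0.06 and -0.02 for all tested genes. Across the experimental group the members varied by a median of 17.5% (SD over mean), against 2.91% in the controls.

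Without experimental library 1, 66 of the 84 members fell (78.6%) and 1 rose, against a background of 19.6% lower and 15.0% higher among 12305 genes (limma, same adjustment). The median log2 change was then -0.37, against -0.041 for all genes, and the decreases ran from 1.10-fold to 1.96-fold with a median of 1.37-fold. For 72 of the 84 members (85.7%) both libraries lay below all 3 controls, against 35.3% of all genes. All 9 members that fell with all libraries were among the 66. Set alone against the controls, experimental library 1 gave 7 higher and 7 lower members (8.33% each), against 9.43 and 10.8% of 12144 genes, where that lone library was assumed to vary like the controls. Experimental libraries 2 and 3 are the ones with the liver and brain transcripts given above.

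Rps29, Rps27a and Rps21, among the members that fell furthest without experimental library 1, were named after their values were seen. Rps29 had 106, 67.6 and 55.2 FPKM in experimental libraries 1 to 3, against 114, 122 and 116 FPKM in controls. Rps27a, which is made as a fusion with ubiquitin, had 243, 144 and 124 FPKM, against 237, 241 and 227 FPKM. Named pseudogene copies held 25.1% of the FPKM summed with Rps27a. That sum was 318, 203 and 235 FPKM, against 312, 310 and 335 FPKM. Rps21 had 103, 52.7 and 53.2 FPKM, against 90.7, 96.1 and 87.2 FPKM. Experimental library 1 lay below the control range for Rps29 and above it for Rps27a and Rps21, and libraries 2 and 3 lay far below the controls. Without library 1 the decreases were 1.90-fold (adjusted p = 0.000707), 1.75-fold (adjusted p = 0.000538) and 1.71-fold (adjusted p = 0.000284), and with it none of the 3 passed (adjusted p = 0.0638, 0.137 and 0.211, limma).

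Rplp0, Rplp1 and Rplp2 form the P stalk, which recruits translation factors. Rplp2 had 72.7, 44.6 and 52.4 FPKM in experimental libraries of passage 6, against 76.8, 79.8 and 77.8 FPKM in controls. Rplp1 had 483, 311 and 311 FPKM, against 398, 454 and 447 FPKM, so library 1 was the highest of all 6. Rplp0 had 863, 789 and 765 FPKM, against 849, 866 and 849 FPKM. None of the 3 passed with all libraries, where 1 of 3 was lower at an unadjusted p under 0.05 (adjusted p = 0.335, 0.303 and 0.0687 for Rplp0, Rplp1 and Rplp2). All 3 passed without library 1, at 1.10-fold, 1.39-fold and 1.60-fold lower (adjusted p = 0.0286, 0.0021 and 0.000925, limma).

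**Figure D2:**
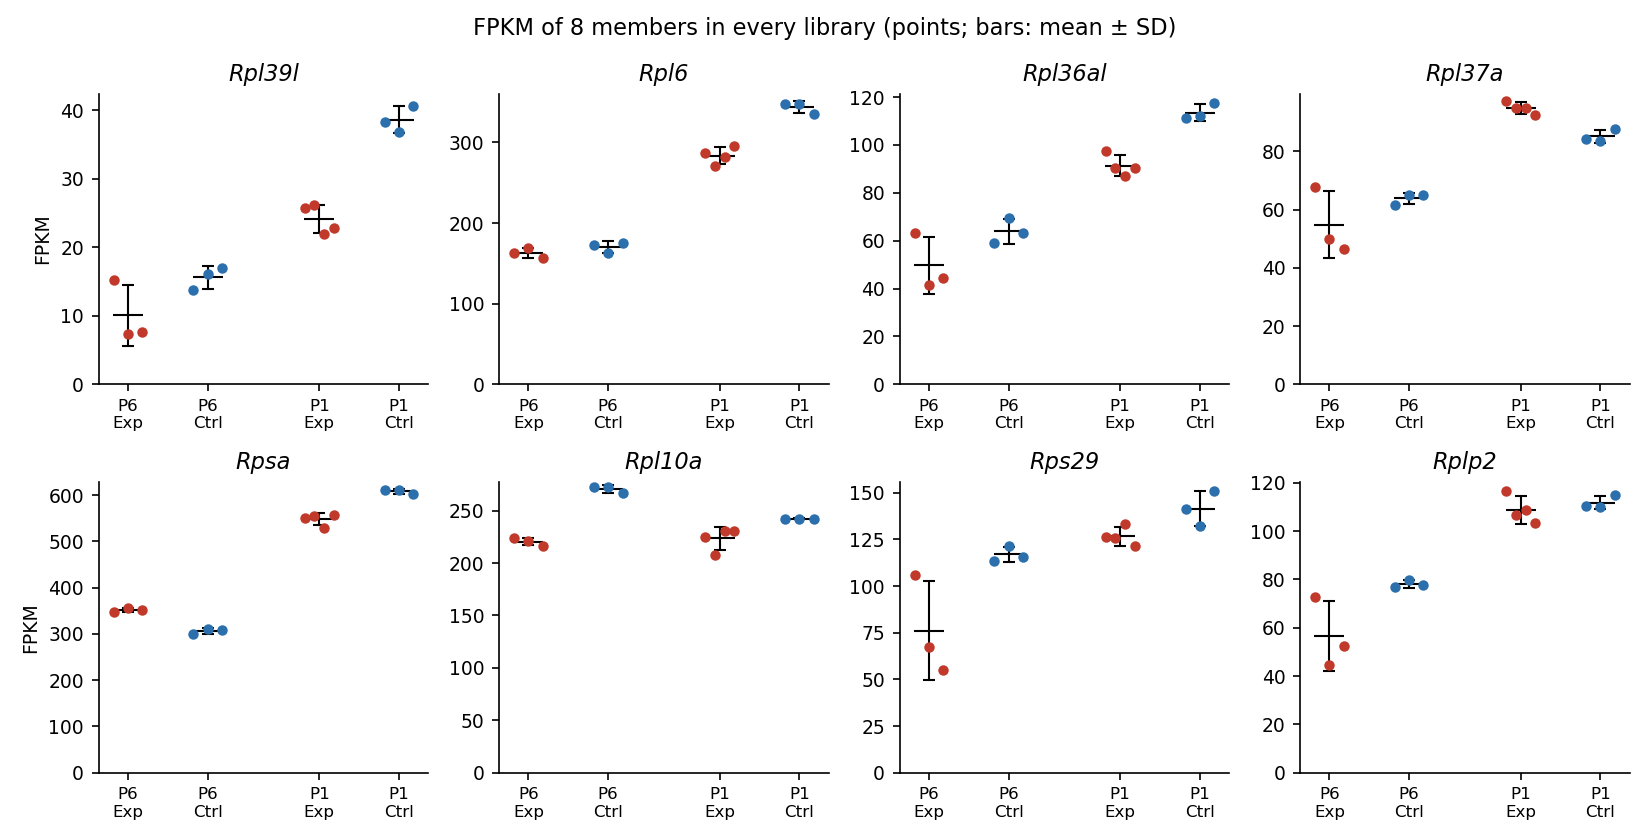
FPKM of 8 members in every library, with passage 6 left of passage 1 and experimental libraries (red) left of controls (blue); points are libraries and bars the mean ± SD. Rpl10a and Rpsa keep their groups apart at passage 6 in all 3 experimental libraries, while for Rps29 and Rplp2 experimental libraries 2 and 3 alone lie far below the controls.

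In passage 6 experimental libraries 2 and 3 short members lay lower than long ones. Over the 84 tested members, which share their controls and libraries, Spearman's rho between coding length and the deviation from the control mean was 0.042, 0.635 and 0.602 in experimental libraries 1 to 3, against 0.374, -0.129 and -0.149 in controls 1 to 3. At passage 1 it was -0.217, -0.22, -0.151 and -0.126 in experimental libraries, against 0.104, 0.445 and -0.417 in controls. Members with coding lengths up to 300 bases had median deviations of 0.013, -0.54 and -0.68 in these libraries, and those over 600 and up to 900 bases had 0.053, -0.090 and -0.17. The 3 members over 900 bases did not continue this order, with medians of -0.11, -0.17 and -0.23. Other genes with a control mean of at least 5 FPKM leaned the same way, but less far. Those up to 300 bases had medians of 0.07, -0.21 and -0.17, and those over 600 and up to 900 bases had 0.036, -0.048 and -0.037. Whether the difference between members and other genes of like length holds beyond the spread between libraries was not tested.

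The 66 members that fell without library 1 had a median coding length of 429 bases, and the 18 other tested members one of 628.5 bases. Of the members up to 300 bases 11 of 12 fell, of those over 600 and up to 900 bases 9 of 20, and of those over 900 bases 3 of 3. With a length trend fitted on other genes taken out, 11 members fell and 1 rose over all passage 6 libraries (background 10.0 and 11.1%), and their median was -0.20. The shortest member, Rpl41, has 75 coding bases and was named after its values were seen. It stood at 297, 260 and 238 FPKM in experimental libraries, against 278, 301 and 278 FPKM in controls, and was 1.15-fold lower without library 1 (adjusted p = 0.0325, limma).

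**Figure D3:**
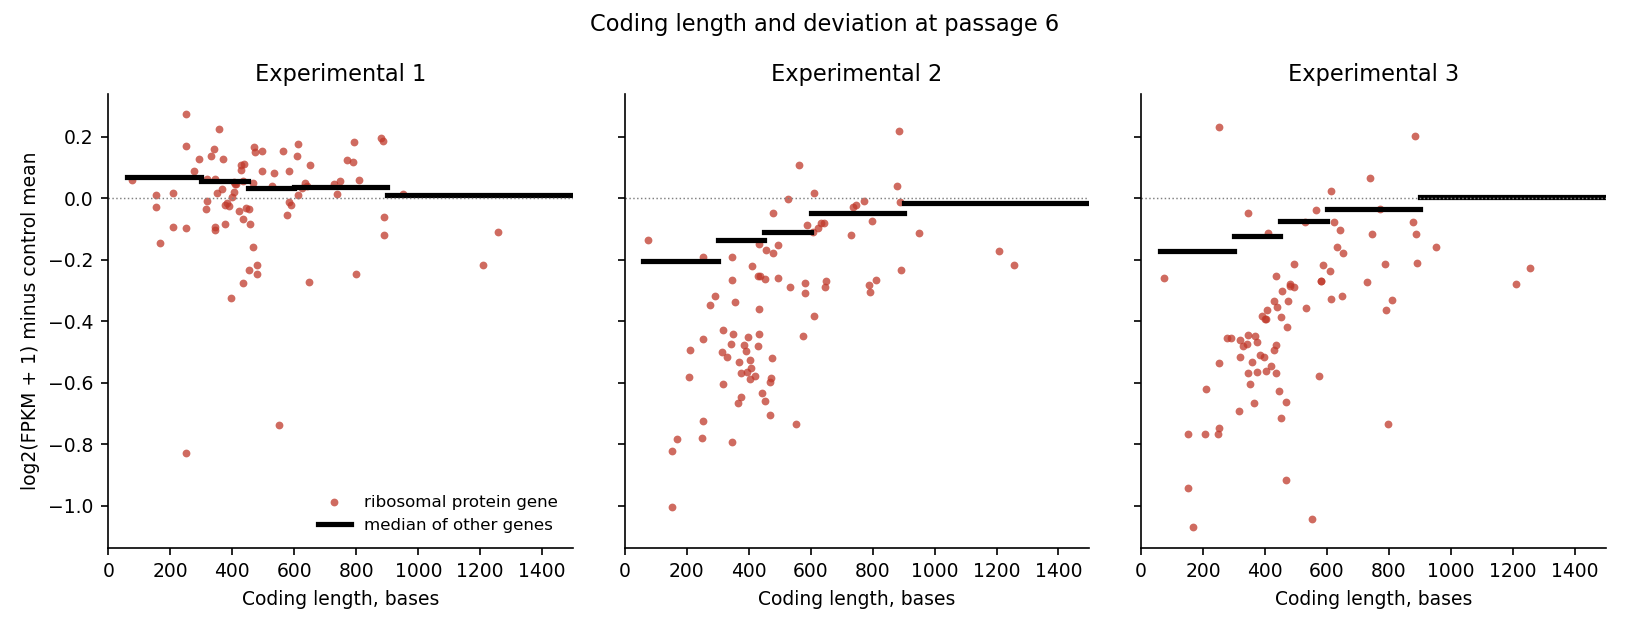
Coding length in bases (x) and log2(FPKM + 1) minus the control mean (y) of the 84 tested members (red points) in passage 6 experimental libraries 1, 2 and 3. Black bars are medians of other genes in the same length class; in libraries 2 and 3 the short members lie below both the long members and the other short genes.

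At passage 1 25 of 84 tested members fell (29.8%) and 2 rose (2.38%), against 18.9% lower and 11.5% higher among 12469 genes (limma, adjusted over all genes at 0.05). The median log2 change of the members was -0.096 and that of all genes -0.053. Decreases ran from 1.09-fold to 1.58-fold with a median of 1.15-fold, and 4 of the 25 reached 1.2-fold. All 4 experimental libraries lay on the same side, with median deviations of -0.095, -0.15, -0.076 and -0.059, against -0.042, -0.046, -0.065 and -0.051 for all genes. In libraries 3 and 4 the members thus lay close to all genes. In all, 43 of 84 members had every experimental library below every control, against 26.9% of all genes. Another 5 had them all above (background 15.8%). The count varied with the controls and the scaling. It was 9, 8 and 7 lower members without control 1, 2 or 3 (background 10.0, 9.76 and 10.3%), and 4 lower and 0 higher without control 1 and experimental library 4 together (background 4.46 and 3.56%). It was 12 lower and 5 higher with median-of-ratios scaling (background 13.9 and 15.0%), 14 and 4 with equal FPKM totals (background 14.5 and 13.8%), 19 and 4 after quantile normalization (background 14.5 and 14.6%), 4 and 12 when libraries were centred on the members (background 7.05 and 21.1%), and 5 and 7 with the length trend taken out (background 13.8 and 15.6%).

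Rpl39l, a paralog of Rpl39 best known from germ cells (ENSMUSG00000039209, chr16:10170226-10174911, plus strand, mm10), fell most at passage 1. It had 25.7, 26.1, 22.0 and 22.8 FPKM in experimental libraries, against 38.3, 36.9 and 40.7 FPKM in controls. The ranges were well apart. The log2 change was -0.66 ± 0.072 (SE), a 1.58-fold decrease (adjusted p = 0.000727, limma), and it passed in all 24 alternatives computed, with adjusted p of 0.000176 to 0.0216. Its parent Rpl39, which lines the exit tunnel, had 36.0, 35.5, 37.3 and 35.7 FPKM, against 36.8, 36.5 and 39.5 FPKM (adjusted p = 0.367).

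Rpl36al, a paralog of Rpl36a, had 97.5, 90.2, 87.2 and 90.4 FPKM in experimental libraries, against 111, 112 and 118 FPKM in controls (1.24-fold lower, adjusted p = 0.00327). Rpl6 had 287, 271, 282 and 295 FPKM, against 348, 348 and 336 FPKM (1.21-fold lower, adjusted p = 0.00303). Rps15 had 920, 879, 953 and 917 FPKM, against 1090, 1085 and 1105 FPKM (1.19-fold lower, adjusted p = 0.00357, limma). No experimental library of these 3 genes reached the lowest control. Rpl6 passed in all 24 alternatives, and Rpl36al in 23, ending with 1 fit over both passages (adjusted p = 0.0521). Rpl36al overlaps Gm49383 on the same strand, so its reads may be shared. Its parent Rpl36a also fell (adjusted p = 0.0441), a call made in 8 of 24 alternatives.

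Rps6, the small-subunit protein that S6 kinases phosphorylate downstream of mTOR, had 385, 370, 404 and 432 FPKM in experimental libraries, against 474, 472 and 463 FPKM in controls (1.18-fold lower, adjusted p = 0.0150). Rpl9 had 125, 119, 121 and 132 FPKM, against 149, 145 and 147 FPKM (1.18-fold lower, adjusted p = 0.00687). Rpl5 had 234, 229, 251 and 260 FPKM, against 290, 279 and 285 FPKM (1.17-fold lower, adjusted p = 0.0153, limma). These groups did not overlap either. Leaving out any 1 control ended the calls of Rps6 (adjusted p = 0.0507 to 0.062) and Rpl5 (adjusted p = 0.0501 to 0.0675, limma). Removing the length trend ended both as well (adjusted p = 0.0986 and 0.103). Rpl11, the partner of Rpl5, had 315, 304, 304 and 323 FPKM, against 318, 317 and 319 FPKM, and did not pass (adjusted p = 0.595). Rps12, Rpl26 and Rpl19 completed the 10 largest decreases, at 1.26-fold, 1.17-fold and 1.16-fold lower (adjusted p = 0.0185, 0.0418 and 0.0118). Rpl19 overlaps Gm11629 on the same strand. Named pseudogene copies held 58.7% of the FPKM summed with Rpl9 and 78.0% of that summed with Rps12. Rpl26 passed in 8 of 24 alternatives. Of the stalk proteins Rplp1 fell 1.09-fold (adjusted p = 0.0378), passing in 7 of 24 alternatives and in none that left out a control, and Rplp0 and Rplp2 did not pass (adjusted p = 0.125 and 0.583).

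The 2 members that rose at passage 1 were Rps2, a protein of the mRNA entry region, and Rpl37a. Rps2 had 872, 834, 833 and 842 FPKM in experimental libraries, against 735, 752 and 768 FPKM in controls. Rpl37a had 97.2, 94.9, 95.0 and 92.3 FPKM, against 84.1, 83.6 and 87.6 FPKM. Every experimental library lay above every control in both genes. Rps2 overlaps Snhg9 on the other strand. The increases were 1.13-fold (adjusted p = 0.0142) and 1.11-fold (adjusted p = 0.0218, limma). Leaving out control 1 or 2 ended both calls (adjusted p = 0.0753 and 0.0628 for Rps2, 0.0978 and 0.102 for Rpl37a), and leaving out control 3 ended that of Rpl37a (adjusted p = 0.0533).

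The difference between passages was tested as the passage 6 change minus the passage 1 change, since each table could only be compared within itself. Of 84 members 1 was lower (1.19%) and 1 higher (1.19%), against 6.27% lower and 8.46% higher among 13019 genes. Rpsa changed by 0.20 at passage 6 and by -0.15 at passage 1 on the log2 scale, and the difference of 0.35 ± 0.056 (SE) passed (adjusted p = 0.0024, limma). At passage 1 it had 551, 555, 529 and 558 FPKM in experimental libraries, against 611, 611 and 603 FPKM in controls, a 1.11-fold decrease (adjusted p = 0.0208). That decrease passed in 14 of 24 alternatives, and leaving out control 1, 2 or 3 (adjusted p = 0.0871, 0.0891 and 0.0739), equal totals (adjusted p = 0.0548) or median-of-ratios scaling (adjusted p = 0.0827) ended it. Its experimental libraries thus lay above the controls at passage 6 and below them at passage 1 with no overlap. The difference passed in 29 of 30 alternatives, and centring on the members ended it (0.41, adjusted p = 0.0793). Rpsa has 8 named pseudogene copies, and adding them gave 0.39 (adjusted p = 0.00187).

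Rpl17 was the member with the lower difference, -1.34 ± 0.35 (SE) on the log2 scale (adjusted p = 0.0235, limma). It had 60.9, 61.1 and 49.2 FPKM in passage 6 experimental libraries, against 96.7, 122 and 91.1 FPKM in their controls (1.79-fold lower, adjusted p = 0.00689). At passage 1 it had 78.5, 101, 155 and 96.5 FPKM in experimental libraries, against 76.4, 51.0 and 103 FPKM in controls, groups that overlapped (adjusted p = 0.197). Its own value was a small part of its locus family, since its 8 named pseudogene copies held 85.9% of the summed FPKM. The sum of Rpl17 and its copies was 473, 400 and 410 FPKM in passage 6 experimental libraries, against 431, 441 and 461 FPKM in controls. At passage 1 the sum was 672, 593, 698 and 773 FPKM in experimental libraries, against 949, 927 and 885 FPKM in controls. On that sum the log2 change was -0.058 at passage 6 (adjusted p = 0.599) and -0.43 at passage 1 (adjusted p = 0.00679), and the difference turned to 0.37 (adjusted p = 0.0547, limma). The values of Rpl17 alone are uncertain. Its difference also ended without passage 6 control 2, without passage 6 experimental library 3 and without passage 1 control 2 (adjusted p = 0.0606, 0.0503 and 0.051).

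Without passage 6 experimental library 1, 41 members had a lower and 2 a higher change at passage 6 than at passage 1 (background 8.83 and 10.8% of 12962 genes). Of the 25 members that fell at passage 1, 5 (20.0%) were among the 9 that fell at passage 6, where they made up 55.6%, namely Rps12, Rps13, Rpl23a, Rpl5 and Rpl4. Without library 1, 20 of the 25 (80.0%) were among the 66, where they made up 30.3%. Over the 84 members, which share libraries, the log2 changes at passage 6 without library 1 and at passage 1 had a Pearson's r of -0.011 and a Spearman's rho of -0.024.

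**Figure D4:**
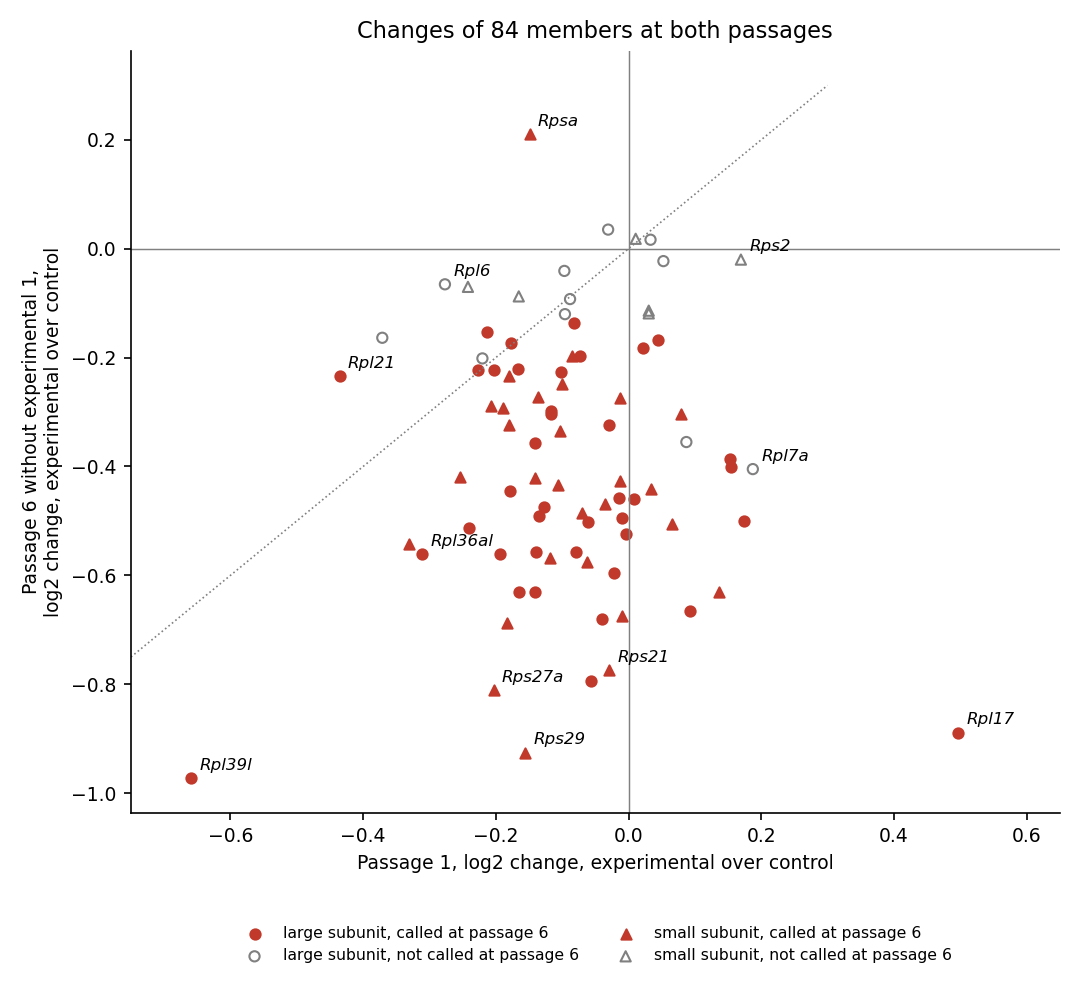
Log2 change of each tested member, experimental over control, at passage 1 (x) and at passage 6 without experimental library 1 (y); circles are large-subunit and triangles small-subunit genes, filled where the passage 6 change passed at 0.05, and the dotted line marks equal changes. Most points lie below the line; Rpl39l is low on both axes and Rpsa is the filled point above 0.

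The counts by subunit were as follows. At passage 6 without library 1, 39 of 50 large-subunit members (78.0%) and 27 of 34 small-subunit members (79.4%) fell (background 19.6%). At passage 1 it was 15 of 50 (30.0%) and 10 of 34 (29.4%, background 18.9%). Their median log2 changes with all libraries were -0.25 and -0.23 at passage 6 and -0.092 and -0.10 at passage 1. Of 30 members with 58 small nucleolar RNAs in their introns 8 fell and 1 rose at passage 6 (background 10.8 and 8.98%). Of the 54 tested members without any, Rpl10a alone fell at passage 6. Among the hosts that fell, named copies held 75.1 to 97.2% of the FPKM summed with Rpl17, Rpl21, Rps12 and Rpl3. They held at most 32.6% with Rps13, Rpl23a, Rpl5 and Rpl4. The median log2 changes were -0.22 for hosts and -0.28 for the others, and without library 1 21 of 30 and 45 of 54 fell (background 19.6%). The median coding length was 511.5 bases in hosts and 420 bases in the others. The difference between them was not tested.

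Of the 6 tested paralogs none changed at passage 6 with all libraries, where 4 were lower at an unadjusted p under 0.05. Without library 1, 4 of them fell (background 19.6%). Rpl39l had 15.3, 7.27 and 7.64 FPKM in passage 6 experimental libraries, against 13.8, 16.2 and 17.0 FPKM in controls, and was 1.96-fold lower without library 1 (adjusted p = 0.000734). Rpl22l1, which can replace Rpl22, had 9.62, 5.55 and 5.55 FPKM, against 9.73, 9.14 and 9.32 FPKM, and Rpl22 had 59.4, 42.8 and 41.9 FPKM, against 58.7, 60.4 and 61.1 FPKM. Both were again low in libraries 2 and 3 alone, at 1.59-fold and 1.41-fold lower without library 1 (adjusted p = 0.000504 and 0.000462, limma). Rps27l, a p53 target and paralog of Rps27, had 16.1, 10.1 and 11.6 FPKM, against 19.9, 16.6 and 15.6 FPKM (1.55-fold lower without library 1, adjusted p = 0.00576). Rpl7l1, a paralog of Rpl7 that works in ribosome assembly, had 16.7, 16.1 and 17.3 FPKM, against 17.0, 15.6 and 17.0 FPKM, so its groups overlapped. Among the other parents, Rpl7 and Rps4x, a small-subunit gene of the X chromosome, fell 1.23-fold and 1.19-fold without library 1 (adjusted p = 0.00204 and 0.00455), and Rpl10 did not pass (adjusted p = 0.0893). At passage 1 Rpl39l and Rpl36al fell and the other 4 did not pass (background 18.9% lower).

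Rps27 and its retrogene Rps27rt varied within groups. At passage 1 Rps27 had 79.3, 48.4, 80.1 and 68.2 FPKM in experimental libraries, against 48.0, 80.6 and 86.3 FPKM in controls, and Rps27rt had 25.0, 104, 24.6 and 66.3 FPKM, against 120, 31.1 and 23.4 FPKM. Libraries high in one were low in the other, with experimental library 4 between. Neither passed at either passage with all libraries (adjusted p = 0.512 and 0.325 at passage 6, 0.921 and 0.977 at passage 1), and their separate values are uncertain because a retrogene is a near copy of its parent. Rps19bp1 did not pass either, with 16.9, 13.1 and 12.3 FPKM, against 15.1, 15.9 and 16.3 FPKM at passage 6 (adjusted p = 0.315).

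Of the 86 members 59 had a total of 236 named copies, and in 11 the copies summed to more FPKM than the member. Rpl7a, a large-subunit protein with 11 copies, was picked after its values were seen. Alone it had 260, 293 and 185 FPKM in passage 6 experimental libraries, against 359, 325 and 252 FPKM in controls. At passage 1 it had 527, 480, 386 and 343 FPKM in experimental libraries, against 298, 507 and 351 FPKM in controls. These values varied by 17.6 to 28.2% (SD over mean) within the 4 groups and overlapped between them.

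The sum of Rpl7a and its copies was 488, 478 and 444 FPKM in passage 6 experimental libraries, against 517.5, 522 and 495 FPKM in controls, and it varied by 0.951 to 4.92% within groups. At passage 1 the sum was 720, 702, 750 and 731 FPKM in experimental libraries, against 743, 756 and 753 FPKM in controls. The named copies were chosen by their symbols, and FPKM of a gene and of shorter copies add up only roughly. With the copies added for all members, 4 fell and 1 rose at passage 6 (background 11 and 9.13%), and 28 fell and 2 rose at passage 1 (background 19.1 and 11.7%).

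**Figure D5:**
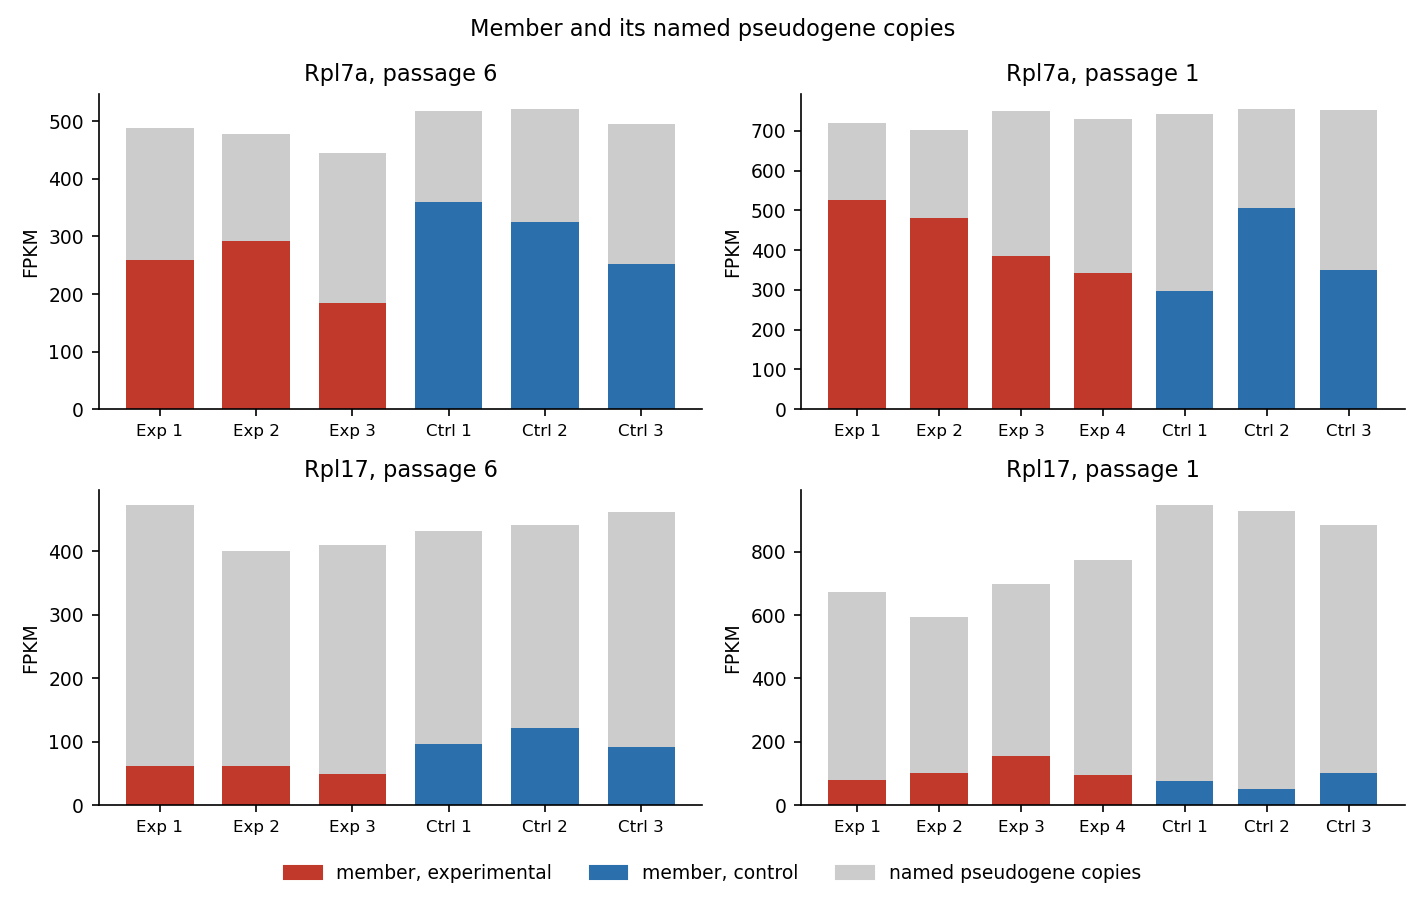
FPKM of Rpl7a and Rpl17 (coloured) and of their named pseudogene copies (grey, stacked) in each library, with passage 6 left and passage 1 right and experimental libraries left of controls. The coloured part of Rpl7a varies within groups by 17.6 to 28.2% (SD over mean), and the stacked total by 0.951 to 4.92%.

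Fau and Rack1, ribosomal proteins missed by the symbol rule, did not pass at either passage with limma, though both were lower at passage 6 at an unadjusted p under 0.05. At passage 6 Fau averaged 114 ± 23.1 FPKM in experimental libraries, against 142 ± 2.66 FPKM in controls, and Rack1 averaged 237 ± 11.8 FPKM, against 266 ± 8.27 FPKM (SD, n = 3 each). Their adjusted p at passage 6 was 0.111 for Fau and 0.0703 for Rack1, and without experimental library 1 both fell. Other mRNAs with a TOP element, among them elongation factors, gave 2 lower and 0 higher of 20 at passage 6 (background 10.8 and 8.98%). At an unadjusted p under 0.05, 9 were lower and 1 higher there, and the share of all genes at that threshold was not computed. Without experimental library 1, 11 of the 20 fell and 1 rose (background 19.6 and 15.0%), with a median log2 change of -0.14. At passage 1 they gave 4 lower and 0 higher (background 18.9 and 11.5%). Snhg1, a snoRNA host, fell 1.41-fold (adjusted p = 0.0244) and Nap1l1 1.16-fold (adjusted p = 0.0395) at passage 6. Gas5, another snoRNA host, fell 1.27-fold (adjusted p = 0.00707) and the elongation factor Eef1g 1.15-fold (adjusted p = 0.00832, limma) at passage 1.

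Over all tested genes 10.8% were lower and 8.98% higher at passage 6, and 18.9% and 11.5% at passage 1. These shares are the background of the gene lists given from here on. Of 34 factors of the large subunit 6 fell and 2 rose at passage 6 and 9 fell at passage 1. Their medians were -0.048 and -0.13, against -0.035 and -0.053 for all genes. At passage 6 Gnl3 (nucleostemin) fell 1.26-fold (adjusted p = 0.00981) and Noc3l 1.22-fold (adjusted p = 0.0133), while Bop1 rose 1.24-fold (adjusted p = 0.0265) and the giant ATPase Mdn1 1.16-fold (adjusted p = 0.0342). At passage 1 Rpf2, which loads the 5S particle, fell 1.39-fold (adjusted p = 0.0125) and the helicase Ddx56 1.35-fold (adjusted p = 0.00238, limma). Of 32 factors of the small subunit 3 fell at passage 6, with Utp3 1.21-fold and Bms1 1.13-fold lower (adjusted p = 0.0479 and 0.041). At passage 1 9 of them fell, with Rrp12 1.37-fold and Utp6 1.34-fold lower (adjusted p = 0.0133 and 0.00393). The medians of these 32 were -0.044 and -0.16.

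Of 12 genes of RNA polymerase I and its factors 1 rose and 1 fell at passage 6, Polr1a 1.15-fold higher (adjusted p = 0.0256) and Taf1d 1.23-fold lower (adjusted p = 0.0119). At passage 1 2 fell, Taf1c 1.31-fold and Polr1b 1.21-fold (adjusted p = 0.00675 and 0.0292). Of 10 snoRNP genes 1 fell at each passage, Nop56, a core of the methylation guides, by 1.31-fold at passage 6 (adjusted p = 0.00479) and Nolc1 by 1.21-fold at passage 1 (adjusted p = 0.034, limma). Of 7 genes of ribosomal protein chaperones Grwd1 rose 1.16-fold at passage 6 (adjusted p = 0.0289), and at passage 1 Aamp rose 1.25-fold (adjusted p = 0.00131) and Pdcd2 fell 1.24-fold (adjusted p = 0.0291).

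Of 15 regulators of these mRNAs none passed at passage 6 with limma (1 higher and 1 lower at an unadjusted p under 0.05), and 2 rose and 1 fell at passage 1. Mycn, the transcription factor that drives ribosome production in neuroblastoma, averaged 14.5 ± 0.510 FPKM in passage 1 experimental libraries (SD, n = 4), against 7.69 ± 1.05 FPKM in controls (SD, n = 3), 1.80-fold higher on the log2(FPKM + 1) scale (adjusted p = 0.000437, limma). Myc averaged 92.8 ± 7.80 and 70.9 ± 3.92 FPKM in the same groups and was 1.30-fold higher (adjusted p = 0.00667). Eif4ebp2, a translation repressor under mTOR, fell 1.11-fold (adjusted p = 0.0459), a call made in 8 of 24 alternatives. With median-of-ratios scaling 4 of the 15 regulators rose and 0 fell at passage 1 (background 15.0 and 13.9%). Of 8 genes of the p53 response Zmat3 rose 1.21-fold at passage 6 (adjusted p = 0.0159). At passage 1 Mdm2 rose 1.16-fold (adjusted p = 0.0206) and Ccng1 fell 1.31-fold (adjusted p = 0.00185).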

How the data were processed

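Poly(A) RNA of 13 Neuro2a libraries, made with a stranded kit from RNA with an integrity number above 7, was analysed from FPKM tables, 1 per passage, deposited by the authors. The submitters' processing notes name cutadapt, HISAT2, StringTie, DESeq2, edgeR and the build mm10, with no settings, and whether reads were counted by strand is not given in the sources used here. Read counts were not used, so the number of reads is unknown and the precision is the spread between libraries. Depth relative to control 1 of the passage was estimated from the most frequent ratio of low FPKM values. At passage 6 it was 1.08, 0.942 and 0.976 in experimental libraries 1 to 3 and 1.03 in controls 2 and 3. At passage 1 it was 1.16 to 1.34 in experimental libraries and 1.22 and 1.24 in controls 2 and 3. 1 gene with an empty cell was left out.

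Log2(FPKM + 1) was tested with limma 3.58.1 (R 4.3.3) with a mean-variance trend, within each passage, on genes that reached 1 FPKM in 3 or more libraries, with Benjamini-Hochberg adjustment over all genes and a threshold of 0.05. A fold change on this scale understates the change of low genes. The passage difference was a contrast over all 13 libraries. Tables were made with Python 3.11.15. The fits were tested on simulated data. Replicate numbers were not used as a block in the fits reported, and whether they pair the libraries is not known. Named members were up to 10 with the largest change among those past the threshold in each direction at each passage, those past it in the passage difference, paralogs with their parents, stalk and 5S proteins, Rps19bp1, and the 5 highest and 5 lowest in FPKM. Of each other gene list up to 2 genes per direction and passage were named. Others are said to be chosen after their values were seen. Alternatives were other pseudocounts, filters, scalings, variance models, a replicate block and left-out libraries, and, added after seeing the data, copies summed with their member and removal of a length trend. Members, gene lists and groupings were chosen with earlier results of these data known. Rps4l was not analysed here, and some named genes are not reported here.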

Additional observations from a re-analysis of the deposited data

Results flagged for a closer look

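Rplp0 had 1296 FPKM in its highest passage 1 experimental library, against 1259 to 1263 FPKM in the other 3. Its gap to the next library exceeded Dixon's critical value at 95% for 4 samples. It was 1 of 42 members' groups of 4 tested in this way, where chance gives about 1 in 20.

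Rpl17 changed by -1.34 more on the log2 scale at passage 6 than at passage 1, and Rpsa by 0.35 more, both past the threshold in the limma test of the difference. The sum of Rpl17 and its copies did not keep that direction, and Rpsa did with its copies added.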

How the results depend on the processing

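Counts of members at passage 6 were 9 lower and 1 higher. Lower members numbered 4 with no filter, 2 when centred on the members, 51 with array weights, 28 in 1 fit over both passages and 4 with copies added, and higher members 0 with no filter, 2 by quantiles, 0 when centred and 7 without experimental libraries 2 and 3. The median of -0.24 was -0.056 when centred and 0.026 without those libraries. At passage 1, 25 were lower and 2 higher. With no filter 10 and 1 were, with equal totals 14 and 4, by median-of-ratios 12 and 5, centred 4 and 12, in 1 fit 15 and 1, without control 1 and experimental library 4 together 4 and 0 (25 and 2 at an unadjusted p under 0.05), and with the length trend removed 5 and 7, and by quantiles 4 were higher. The median of -0.096 was -0.052, -0.042, -0.046, 0.022 and -0.0083 with equal totals, median-of-ratios, quantiles, centring and length removal. Centring moved the median of all genes to 0.14 at passage 6, against -0.035, and to 0.065 at passage 1, against -0.053. The passage difference, with 1 lower and 1 higher, gave 0 lower with no filter, 2 and 2 at a minimum of 5 FPKM, 4 lower with equal totals, 5 without mitochondrial genes, 2 by median-of-ratios, 32 with array weights, 3 higher by quantiles, 0 higher when centred, 0 and 7 without passage 6 experimental libraries 2 and 3, 0 lower without passage 1 control 1 and experimental library 4, 0 and 2 with copies, and 8 lower with length removed. The difference in member share, -0.417 percentage points at passage 6 and -0.229 at passage 1, was -0.997 and -0.526 over the nuclear protein-coding total. Leaving out 1 library gave 2 to 66 lower and 0 to 1 higher members at passage 6, a median of -0.37 to -0.18 and a share difference of -0.631 to -0.284; at passage 1, 7 to 28 lower, 0 to 3 higher, -0.11 to -0.075 and -0.307 to -0.167; and for the difference 0 to 41 lower and 1 to 2 higher. Among named results Rpl17 changed sign with copies added. At passage 1 its sum fell (-0.43) and passed the threshold, while Rpl17 alone had not passed. In the difference its sum gave 0.37 and did not pass (adjusted p = 0.0547, limma), while Rpl17 alone had passed. Rps27 changed sign at passage 6 without experimental libraries 2 and 3 (0.27). Sign changes where no fit passed are not listed. A replicate block gave 5 lower and 0 higher at passage 6, 8 and 0 at passage 1 and 2 lower in the difference. Deviations from the group mean in same-numbered libraries had correlations of -0.066, -0.060 and 0.033 at passage 6 and of 0.17, -0.19 and 0.24 at passage 1. In differently numbered libraries they ran from -0.092 to 0.11 and from -0.35 to 0.26. So few libraries cannot decide whether the numbers pair them. The cause of these shifts was not tested. The tables hold no read counts, so the counting error of low members is unknown.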
